A study of Homo sapiens with 20 samples.

Results

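The genes described here are 10 integrin subunits and adhesion molecules of the erythroid cell surface: ITGA4, ITGA5, ITGAV and ITGA2B (integrin α subunits), ITGB1 and ITGB2 (integrin β subunits), CD44, CD47, ICAM4 and BCAM. They were chosen by name, as the rows of the deposited transcript tables that carry one of these 10 gene symbols, summed by gene, out of 46425 genes in all. All 10 reached more than 3 counts in at least 1 library and all 10 were among the 16784 genes tested, though BCAM passed the filter on low counts only through its later days. HUDEP-2 is an immortalized wild-type line of erythroid progenitors from umbilical cord blood, kept with erythropoietin, stem cell factor (SCF), doxycycline and, by the study's methods, dexamethasone. It was sequenced on day 0 and on days 1 to 8 and 12 of differentiation in a medium with transferrin, human serum, heparin and insulin. Erythropoietin was in the medium throughout, SCF was left out from day 6 and doxycycline from day 8, so that a change after day 6 or 8 and the change of medium cannot be told apart. The differentiation medium also has another base and, as described, no dexamethasone, so every difference from day 0 and that change cannot be told apart either. Each of the 10 days had 2 libraries of poly(A) mRNA, 20 in all, numbered as replicates in the labels. The study calls its libraries from before and after differentiation biological replicates, and does not say whether they came from separate cultures, so the p-values measure the spread between these libraries.

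Integrins are receptors made of 1 α and 1 β chain that bind matrix proteins or receptors of other cells, and they signal inward once bound. In the bone marrow, erythroblasts use the pair of ITGA4 and ITGB1 (VLA-4) to hold VCAM1 on the central macrophage of the erythroblastic island and fibronectin in the matrix, and the pair of ITGA5 and ITGB1 to hold fibronectin. ICAM4, the Landsteiner-Wiener blood group protein, is an integrin ligand on the red cell itself. BCAM carries the Lutheran antigens and binds laminin, CD44 carries the Indian antigens and binds hyaluronan, and CD47 is the "do not eat me" signal that macrophages read through SIRPA. Integrins are lost from the cell surface as reticulocytes mature, while ICAM4, BCAM, CD44 and CD47 are known from mature red cells.

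Levels are given as TPM, the authors' values scaled to transcript length and to the library's total, so that genes can be compared within a library. Changes are given as log2 fold changes ± SE of the summed counts from edgeR's quasi-likelihood test with Benjamini-Hochberg adjustment over all 16784 genes, scaled by TMM, and "called" means an adjusted p under 0.05. The 2 libraries of a day have no usable number. The one from the tables of separate days is called the first library here, and the one from the table that spans all days is called the second. Counts per library summed to 52131713 to 70358198. A gene listed at 0 counts could have had up to 3 counts, or 0.0426 to 0.0575 CPM (counts scaled to the library's total), from counting error alone. Globin genes took 0.819% to 9.85% of the counts on days 0 to 8 and 28.2% to 33.7% on day 12, and ribosomal RNA genes took 18.5% and 17.5% in the first libraries of days 7 and 8 against 1.03% to 4.08% in the other 18. TPM fall for most genes when a few genes take more of a library, whereas TMM scales each library on the bulk of its genes. The TMM factors were 0.464 and 0.544 on day 12 against 0.805 to 1.17 before it. Where a comparison given in a gene's paragraph turns direction on the TPM scale, that paragraph says so, and comparisons not given there can turn too.

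Of the erythroid markers, 8 of 8 were above 1 TPM, and all 8 were called higher on day 8 than on day 0, where 17.7% of all genes were. Because these are bulk samples, fewer cells of a type and less RNA per cell cannot be told apart in any level below. Of 12 megakaryocyte and platelet markers, 7 never passed 3 counts and only GP1BB and TUBB1 passed 1 TPM in any library, with a summed level of 4.45 to 23.3 TPM. Of 5 lymphocyte markers, only CD3D passed 1 TPM, and of 10 monocyte, macrophage and granulocyte markers only LYZ and CD68 did. The mast cell and basophil markers were abundant at the start, with a summed level of 2130 and 1170 TPM on day 0 and 8.10 and 1.56 on day 8. Against day 0, none of the 5 tested was called on day 1. All 5 were called lower on days 4 to 6, day 8 and day 12, where 9.22%, 19.4% and 38.5% of all genes were. Their part in the members' differences was not tested.

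Promoter sequences (RefSeq, GRCh38.p14) are shown for ITGA2B, which had the largest fold change from day 0 to day 8, for BCAM, which had no counts on day 0, and for ICAM4, whose level moved little until then. Each run is the 250 bases before the gene's start, 5′ to 3′ on the gene's strand. Capitals mark matches on either strand to the letters AGATAA or else AGATAG, and likewise TGATAA or else TGATAG, which are those of a GATA factor site, or to CCNCNCCC, the letters of a KLF site, which GC boxes of the SP family overlap.

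ITGA2B, chr17:44389650-44389899, minus strand: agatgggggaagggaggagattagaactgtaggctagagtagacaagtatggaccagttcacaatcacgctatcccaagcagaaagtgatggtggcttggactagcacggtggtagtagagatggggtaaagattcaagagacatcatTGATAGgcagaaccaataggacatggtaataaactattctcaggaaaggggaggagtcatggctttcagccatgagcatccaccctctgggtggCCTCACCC
BCAM, chr19:44808809-44809058, plus strand: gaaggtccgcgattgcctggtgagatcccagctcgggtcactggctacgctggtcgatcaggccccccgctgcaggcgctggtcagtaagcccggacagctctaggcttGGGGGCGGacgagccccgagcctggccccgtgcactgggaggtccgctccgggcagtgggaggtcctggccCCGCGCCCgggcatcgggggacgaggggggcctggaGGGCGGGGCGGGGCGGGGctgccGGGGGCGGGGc
ICAM4, chr19:10286705-10286954, plus strand: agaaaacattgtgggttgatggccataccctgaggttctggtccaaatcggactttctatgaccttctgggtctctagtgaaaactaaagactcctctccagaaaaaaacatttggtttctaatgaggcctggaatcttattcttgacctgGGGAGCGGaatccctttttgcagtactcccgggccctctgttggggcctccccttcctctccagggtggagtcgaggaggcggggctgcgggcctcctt

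ITGA2B was the only one of the 9 members with a promoter in that table that held a GATA match, 102 bases before its start, as 22.3% of the 35116 promoters of that length did. All 9 held a KLF match, as did 53.4% of the promoters. BCAM had 7 KLF matches, some of which overlap, in a window of 76.0% G and C, while the windows of ITGA2B and ICAM4 held 1 each at 48.8% and 52.4%. A match is a run of letters and not a site that was shown to be bound.

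Across the 10 days, 8 of the 9 members other than BCAM were called as changed, where 66.0% of all genes tested were. CD44 was the exception (adjusted p = 0.11). DESeq2, upper-quartile normalization and the fits to TPM called it too. So did fits with the table set (first or second library) as a block or with at least 10 counts in every library. None of the 20 fits that left out 1 library did. The plot of TPM by day shows several kinds of course side by side. ITGA4, ITGA5, ITGB2 and CD47 fell to near 0 between days 8 and 12, with no day sampled in between. ITGA2B and ITGAV were lower from day to day well before that. ITGB1, CD44 and ICAM4 were still above 20 TPM on day 12, and BCAM went from 0 counts to a low level.

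ITGA4 (gene 3676, hg38 chr2:181456892-181538940, plus strand) was the second most abundant member on most days. Its first libraries read 145.2, 119.6, 148.2, 153.2, 163.6, 169.8, 140.4, 83.95 and 61.37 TPM on days 0 to 8 and 0.992 on day 12. Its second libraries read 149.8, 135.5, 153.1, 171.5, 156.6, 162.4, 178.6, 118.6 and 134.3 TPM on days 0 to 8 and 0.353 on day 12. The libraries of a day lay close together to day 5 and parted from day 6, most on day 8, where the second read 134.3 against 61.37 TPM, and both were near 0 on day 12, far below every other library. The mean was 147.5 ± 3.30 TPM on day 0, 97.9 ± 51.6 on day 8 and 0.672 ± 0.452 on day 12 (SD, n = 2 each). In counts this was 27229 and 30244 on day 0 and 302 and 129 on day 12, well above the limit of 3, so both libraries still held ITGA4 reads. Day 8 was not distinguishable from day 0 (−0.03 ± 0.28, 95% interval −0.586 to 0.522, adjusted p = 0.95), with −0.53 between the first libraries and 0.35 between the second. Day 12 was lower than day 8 by −5.77 ± 0.35 (adjusted p = 1.4e-08) and than day 0 by −5.80 ± 0.35 (adjusted p = 9e-09), with calls in all 20 fits that left out 1 library. The difference between days 4 to 6 and day 0 was not called (0.29 ± 0.24, adjusted p = 0.47).

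ITGB1 (gene 3688, hg38 chr10:32900318-32958230, minus strand), the β chain that ITGA4, ITGA5 and ITGAV all pair with, was the most abundant member. Its first libraries read 206.6, 177.1, 234.9, 273.4, 290.9, 294.1, 265.6, 180.0 and 164.2 TPM on days 0 to 8 and 59.09 on day 12. Its second libraries read 207.5, 189.4, 230.6, 293.3, 264.1, 282.0, 310.3, 229.7 and 262.5 TPM on days 0 to 8 and 37.63 on day 12. All 6 libraries of days 4 to 6 were above both of day 0, and both of day 12 were below every other. Days 4 to 6 were higher than day 0 by 0.61 ± 0.12 (adjusted p = 0.0037), and day 8 by 0.62 ± 0.14 (adjusted p = 0.0045; 0.37 between the first and 0.84 between the second libraries). Day 12 was lower than day 8 by −0.70 ± 0.14 (adjusted p = 0.00081). In fits of the days compared alone the differences of day 8 from day 0 (adjusted p = 0.073) and of day 12 from day 8 (adjusted p = 0.076) were not called. Against day 0 it was level under TMM (−0.08 ± 0.14, adjusted p = 0.61) and lower in TPM (limma on log2(TPM + 1), −2.11 ± 0.22, adjusted p = 1.1e-06), a difference of scale. On the log2(TPM + 1) scale neither earlier difference was called, the one on day 8 being 0.00 (adjusted p = 1.0), and the call on days 4 to 6 was lost without the second library of day 0 (0.58, adjusted p = 0.053).

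The ratio of ITGA4 to ITGB1 within a library does not depend on how libraries are scaled. It was 0.703 and 0.722 on day 0, 0.528 and 0.576 on day 6, 0.374 and 0.512 on day 8, and 0.0168 and 0.00937 on day 12. Both libraries of day 8 were below both of day 0, and day 12 was below all of them by an order of magnitude. Per molecule of ITGB1 mRNA there was less ITGA4 mRNA on the later days. No test was run on the ratio.

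ITGA5 (gene 3678, hg38 chr12:54395261-54419266, minus strand), the α chain of the main fibronectin receptor, was a minor partner at 5.62 to 13.3 TPM on days 0 to 8, with its highest level in both libraries on day 1. On day 12 it read 0.231 and 0.376 TPM, below all 18 earlier libraries. Day 12 was lower than day 8 by −3.08 ± 0.40 (adjusted p = 1.7e-05) and than day 0 by −2.56 ± 0.39 (adjusted p = 5.5e-05). Between days 0 and 8 it was not called (0.53 ± 0.36, adjusted p = 0.27), and the sets of libraries went opposite ways, 1.22 between the first and −0.25 between the second. On the log2(TPM + 1) scale the same difference read −0.10 (adjusted p = 0.78). ITGA4 was 7.04 to 25.9 times as high as ITGA5 on days 0 to 8.

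ITGAV (gene 3685, hg38 chr2:186590056-186680902, plus strand), the α chain of vitronectin receptors, was low throughout. It read 2.97 and 4.22 TPM on day 0, 1.15 and 0.733 on day 8 and 0.19 and 0.0355 on day 12, and the mean of a day was lower than that of the day before it on every day. Day 8 was lower than day 0 by −1.29 ± 0.47 (adjusted p = 0.045), day 12 than day 8 by −1.76 ± 0.50 (adjusted p = 0.0077) and day 12 than day 0 by −3.05 ± 0.51 (adjusted p = 0.00012). The call on day 8 held in only 5 of the 20 fits that left out 1 library, failing without either library of any of days 0 to 6 or without the second of day 8 (adjusted p up to 0.24). That of day 12 against day 8 was lost without the first library of day 8 (−1.25, adjusted p = 0.074) or the second of day 12 (−1.11, adjusted p = 0.055). With the days compared alone neither was called (adjusted p = 0.079 and 0.099), nor was day 8 with upper-quartile scaling (adjusted p = 0.057).

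ITGA2B (gene 3674, hg38 chr17:44372181-44389649, minus strand) is the α chain of the platelet fibrinogen receptor and is best known from megakaryocytes. Its first libraries read 68.9, 69.84, 38.16, 19.51, 15.62, 10.45, 7.84, 0.774 and 0.292 TPM on days 0 to 8 and 1.03 on day 12. Its second libraries read 10.66, 7.43, 5.72, 3.15, 2.69, 1.97, 2.52, 0.150 and 0.140 TPM on days 0 to 8 and 0.465 on day 12. The first library was higher on 10 of 10 days, by 2.09 to 9.40 times, while in both sets day 8 was the lowest day, and both libraries of day 8 were below every one of days 0 to 6. On each of days 0 to 8 the libraries of a day were at least 2-fold apart in 1 direction for ITGA2B and for no other member, and for 1.05% of all genes tested. Day 8 was lower than day 0 by −6.84 ± 1.81 (adjusted p = 0.010), with −7.10 between the first and −5.50 between the second libraries. The step from day 6 to day 7, from 939 and 232 counts to 83 and 16, was not called (−3.12 ± 1.55, adjusted p = 0.29), nor was day 8 against days 4 to 6 (−4.41 ± 1.57, adjusted p = 0.059). With the table set as a block, which takes the standing difference between the sets out of the error, these were called at −3.30 (adjusted p = 0.0019) and −4.36 (adjusted p = 6.2e-05). Day 12 read higher than day 8 in both sets (3.08 ± 1.65, adjusted p = 0.13; 3.41, adjusted p = 0.00016 with the block), from 38 and 15 counts to 160 and 88, and lower than day 0 (−3.76 ± 1.53, adjusted p = 0.042). The call on day 8 was lost without the first library of day 0 (−4.89, adjusted p = 0.061), the first of day 8 (−7.60, adjusted p = 0.067) or the second of day 8 (−6.34, adjusted p = 0.067), and that on day 12 without the first of day 0 (−1.82, adjusted p = 0.33), the first of day 12 (−4.18, adjusted p = 0.12) or the second of day 12 (−3.44, adjusted p = 0.18). Upper-quartile scaling also lost the latter (−3.56, adjusted p = 0.054).

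The partner of ITGA2B in its receptor, ITGB3, stayed under 1 TPM in every library, from 0.917 in the first library of day 1 to 0 in the second of day 12. The megakaryocyte and platelet markers did not share the course of ITGA2B, their summed level being 6.48 and 4.45 TPM on day 0 and 11.7 and 8.35 on day 8, though like ITGA2B it was higher in the first library on 10 of 10 days. The mast cell and basophil markers, led by the tryptases TPSAB1 and TPSB2, were also lower on day 8 than on day 0. Their sum was 2130 and 1170 TPM on day 0 and 278 and 158 on day 6. It was 7.59 and 0.592 on day 7 and 8.10 and 1.56 on day 8. On day 12 the courses parted, this sum being lower still at 1.39 and 0.239 TPM while ITGA2B read higher than on day 8. Of the 7 markers 5 were tested, and all 5 were called lower on day 8 than on day 0, where 19.4% of all genes were. Their sum was also higher in the first library of each day, and the part of either marker list in the ITGA2B values was not tested.

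ITGB2 (gene 3689, hg38 chr21:44885949-44928815, minus strand), the β chain of leukocyte integrins, lay between 1.04 and 3.50 TPM on days 0 to 8, with its highest level in both libraries on day 3, and read 0.185 and 0.065 on day 12. Its higher level on days 4 to 6 than on day 0 passed the test (1.05 ± 0.32, adjusted p = 0.038), but held in only 8 of the 20 fits that left out 1 library, failing without either library of any of days 0, 2, 3, 4, 5 and 6 (adjusted p up to 0.23), and not without the filter on low counts (adjusted p = 0.071) or in log2(TPM + 0.1) (adjusted p = 0.089). Day 12 was lower than day 8 (−2.14 ± 0.40, adjusted p = 0.00040) and than day 0 (−1.36 ± 0.39, adjusted p = 0.0073), the latter not without the second library of day 12 (−0.91, adjusted p = 0.084) or with the days compared alone (−1.29, adjusted p = 0.085). Day 8 against day 0 was not called (0.78 ± 0.37, adjusted p = 0.11). The α chains it pairs with, ITGAL, ITGAM, ITGAX and ITGAD, were at 0.439 TPM or less in every library.

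CD44 (gene 960, hg38 chr11:35139168-35232402, plus strand) read 54.66, 38.18, 39.88, 38.03, 41.81, 41.11, 36.35, 25.83 and 20.79 TPM in its first libraries of days 0 to 8 and 20.46 on day 12. Its second libraries read 74.94, 55.72, 54.79, 55.46, 52.22, 53.73, 52.05, 38.86 and 35.47 TPM on days 0 to 8 and 20.25 on day 12. The second library was above the first on 9 of 9 days to day 8, day 0 was the highest day in both sets, and both libraries of day 8 were below both of day 0. Day 8 against day 0 was not called (−0.63 ± 0.27, adjusted p = 0.077), and was with the table set as a block (−0.64, adjusted p = 4.5e-05) or by DESeq2 (adjusted p = 0.049). Day 12 is where the scales part: CD44 was called higher than on day 8 under TMM (0.98 ± 0.27, adjusted p = 0.0064), while in TPM it read −0.40 (limma on log2(TPM + 1), adjusted p = 0.30). Against day 0 it was 0.35 ± 0.27 (adjusted p = 0.26) under TMM and −1.61 ± 0.32 (adjusted p = 0.00041) in TPM. The call under TMM was lost without the first library of day 8 (0.75, adjusted p = 0.072) or the second of day 12 (0.78, adjusted p = 0.069).

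CD47 (gene 961, hg38 chr3:108043091-108094200, minus strand) read 50.01 and 37.26 TPM on day 0, 20.69 and 26.49 on day 8, and 3.02 and 0.864 on day 12, where both libraries lay below all 18 others. The fall to day 12 was −2.11 ± 0.30 from day 8 (adjusted p = 4.1e-05) and −2.35 ± 0.30 from day 0 (adjusted p = 1.1e-05), called in all 20 fits that left out 1 library and in TPM (−3.16 and −4.01, limma on log2(TPM + 1)). Day 8 against day 0 was not called (−0.25 ± 0.29, adjusted p = 0.53), and days 4 to 6 were not either (−0.56 ± 0.23, adjusted p = 0.12). In TPM day 8 was called lower than day 0 (−0.86, adjusted p = 0.023).

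ICAM4 (gene 3386, hg38 chr19:10286955-10288520, plus strand) changed little to day 8. Its first libraries read 148.6, 109.6, 120.1, 126.5, 142.3, 135.3, 127.7, 132.7 and 115.8 TPM on days 0 to 8 and 56.77 on day 12. Its second libraries read 129.8, 119.7, 114.5, 126.3, 121.6, 138.6, 116.9, 116.4 and 122.2 TPM on days 0 to 8 and 35.86 on day 12. The 18 libraries of days 0 to 8 stayed between 109.6 and 148.6 TPM, and both of day 12 were below them. Neither day 8 against day 0 (0.37 ± 0.16, adjusted p = 0.083) nor day 12 against day 8 (0.05 ± 0.16, adjusted p = 0.80) was called under TMM. On the log2(TPM + 1) scale the former read −0.22 (adjusted p = 0.30) and the latter was called lower (−1.38 ± 0.17, adjusted p = 1e-05). Day 12 was called higher than day 0 under TMM (0.42 ± 0.16, adjusted p = 0.029) and lower in TPM (−1.60 ± 0.17, adjusted p = 1.4e-06). The former was lost without the second library of day 0 (0.27, adjusted p = 0.24) or the first of day 12 (0.28, adjusted p = 0.19), with the days compared alone (adjusted p = 0.056) or without the filter on low counts (adjusted p = 0.14).

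BCAM (gene 4059, hg38 chr19:44809059-44821421, plus strand) had 0 counts in all 6 libraries of days 0 to 2. Its first libraries held 15, 34, 44, 43, 76, 40 and 33 counts on days 3, 4, 5, 6, 7, 8 and 12, and its second libraries 3, 0, 9, 0, 74, 37 and 34. The sets differed on days 3 to 6 and came together from day 7, the highest day in both, at 0.884 and 0.760 TPM, so the gene stayed under 1 TPM even at its peak. Since the gene passed the filter on low counts only through the days on which it is high, no test of a later day against day 0 is given for it. Set against 3 counts in each day 0 library, day 8 was at least 13.2-fold higher in the mean of its libraries (11.9-fold in the lower one) and day 12 at least 11.6-fold (11.4-fold in the lower one), in CPM.

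Seen by comparison, none of the 9 members other than BCAM was called on day 1 against day 0, where 0.393% of all genes were. None of the 9 had an unadjusted p under 0.05 or a call by DESeq2. BCAM had 0 counts on both days and could not be called. Days 4 to 6 against day 0 gave 2 calls of these 9, both higher (ITGB1 and ITGB2), with 16.6% of all genes called, 7.38% higher and 9.22% lower. No member was called on day 7 against day 6 (2.57% of all genes; 1 member at an unadjusted p under 0.05, ICAM4 at 0.38 ± 0.16, and 0 by DESeq2), nor on day 8 against days 4 to 6 (22.7% of all genes; 2 members at an unadjusted p under 0.05 and 1 by DESeq2, ITGA2B). In the comparisons that follow BCAM is again left out, for the reason given in its paragraph, which leaves 9 members. Day 8 against day 0 gave 3 calls of 9, 1 higher (ITGB1) and 2 lower (ITGAV and ITGA2B), with 37.1% of all genes called, 17.7% higher and 19.4% lower, and a median of −0.03 over the 9 members beside 0.00 over all genes. The count of 3 was 1 without the first library of day 0 and 2 without the second. It was 2 without the first library of day 8, a library rich in ribosomal RNA, and 1 without the second. Without any 1 library of days 1 to 6 it was 2, and it stayed at 3 only without a library of day 7 or 12.

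Day 12 against day 8 gave 7 calls of 9, 6 lower and 1 higher, with 57.2% of all genes called, 33.4% lower and 23.8% higher, and a median of −1.76 over the members beside −0.20 over all genes. The count was 5 without the first library of day 8 and 5 without the second of day 12. Day 12 against day 0 gave 7 calls of 9, 6 lower and 1 higher, with 68.2% of all genes called, 38.5% lower and 29.7% higher, and a median of −2.35 beside −0.29. There were 6 without either library of day 0 and 5 without either of day 12. Libraries that do not overlap are common in these comparisons (68.0%, 78.8% and 84.2% of all genes for day 8 against day 0, day 12 against day 8 and day 12 against day 0), so this alone sets no member apart. On the TPM scale the median over all genes moved to −0.34, −0.68 and −1.12 for the same 3 comparisons, and 15.5%, 13.5% and 13.4% of the calls were higher against 47.7%, 41.6% and 43.5% under TMM. With a pseudocount of 0.1 in place of 1 the median for day 12 against day 0 was −1.81, because the larger pseudocount shrinks the changes of low genes. ITGA4, ITGA5, ITGAV, ITGA2B and CD47 lay below the median of all genes on day 12 against day 0 under TMM and with either pseudocount. ICAM4, CD44 and ITGB1 lay above it under TMM, and in TPM the place of CD44 (−1.61 and −1.65), ICAM4 (−1.60 and −1.62) and ITGB2 (−1.07 and −2.75) beside the median depended on the pseudocount.

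**Figure D1:**
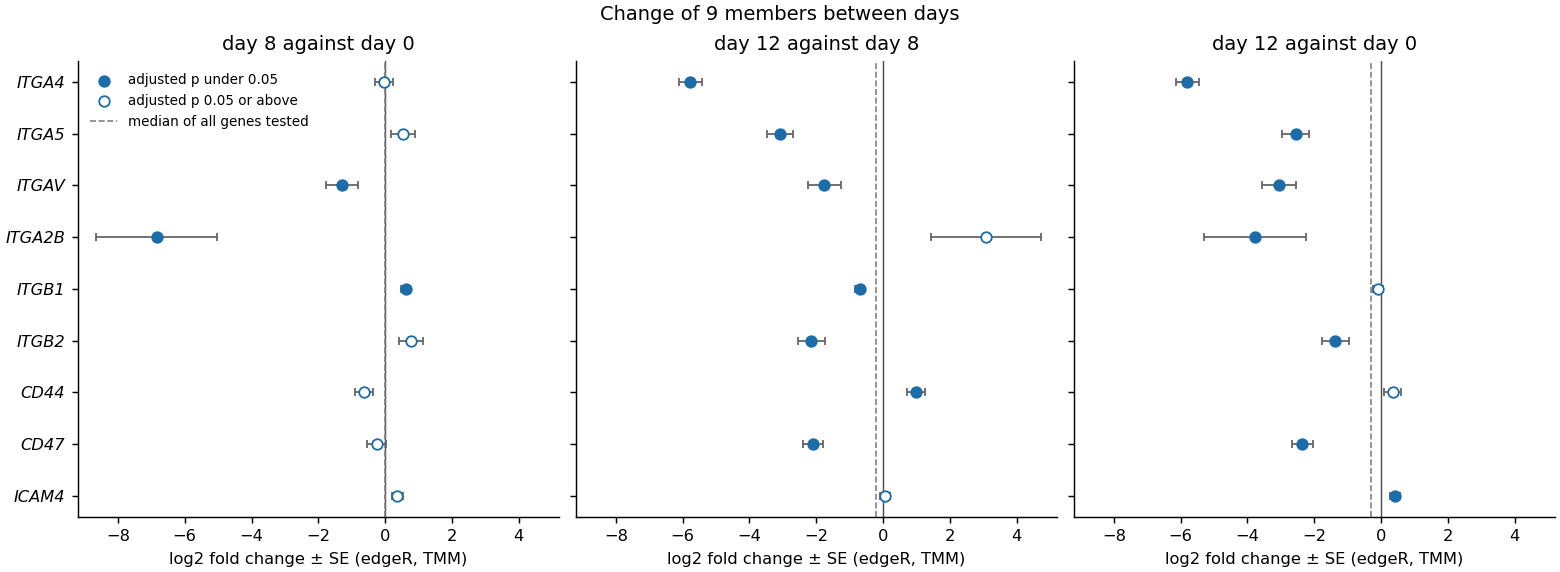
Log2 fold change ± SE (horizontal axes, edgeR with TMM) of 9 members in 3 comparisons of days. Filled points have an adjusted p under 0.05 and the dashed line is the median of all 16784 genes tested; ITGA4 sits at −0.03 on day 8 and at −5.80 on day 12 against day 0, and BCAM is left out because it had 0 counts on day 0.

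**Figure D2:**
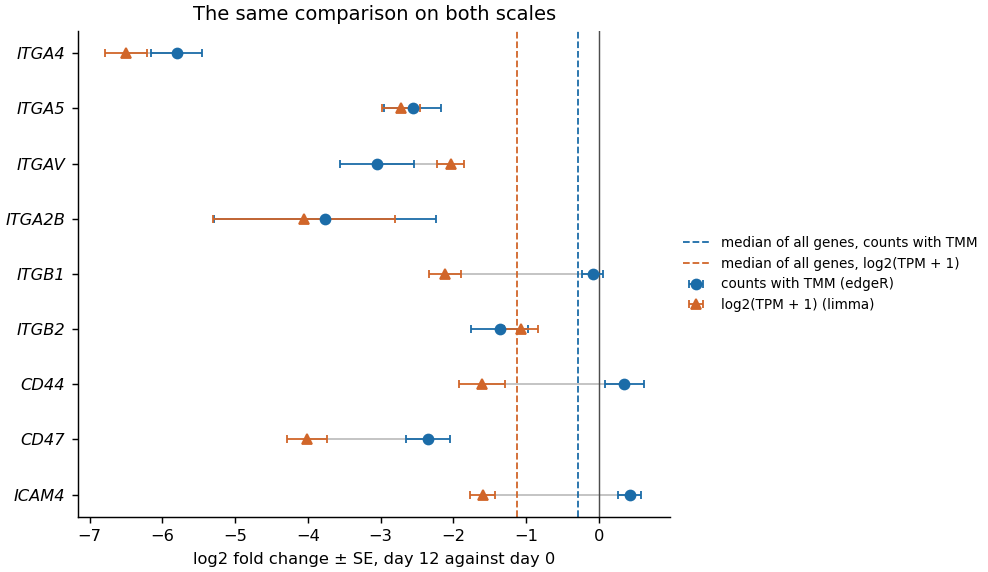
Log2 fold change ± SE on day 12 against day 0 of 9 members, from counts with TMM (circles) and from log2(TPM + 1) (triangles), with the median of all genes on each scale as a dashed line (−0.29 and −1.12). ITGB1, CD44 and ICAM4 go from −0.08, 0.35 and 0.42 to −2.11, −1.61 and −1.60, while the pseudocount of 1 holds back the shift of members at low TPM.

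The transcript tables show which forms of these genes were present. A single transcript held at least 50% of the gene's TPM in all 20 libraries for 6 of the 10 members (ITGA4, ITGA5, ITGAV, ITGA2B, ITGB1 and ICAM4). NM_000885 made up 98.8% to 100.0% of ITGA4, and NM_002211 made up 88.9% to 99.5% of ITGB1. CD44, a gene known for its many variant exons, had 27 transcripts in the tables, of which NM_001001391 led with 32.7% to 65.6% (median 53.1%). Its share was higher in the first library on 9 of the 10 days, the exception being day 12 at 58.9% and 59.8%. NM_198793 led CD47 with 49.5% to 73.3% on days 0 to 8 and with 54.6% and 36.7% on day 12, when the noncoding XR_002959610 reached 15.4% and 30.7% of a low total. NM_001544 held 73.1% to 85.7% of ICAM4, the rest being NM_001039132. For ITGB2 the transcript credited with the most reads changed from library to library at 11 to 263 counts, so no form is given. How the authors' program divides reads among overlapping transcripts is not given in the sources used here, and no test was run on shares.

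The genes whose course over the 20 libraries was most like a member's, by Pearson's r of TMM-scaled log2 CPM, are given as a description. They share the libraries, the depth and the large step to day 12 with the member. TTC13 (0.998), SMC6 (0.997) and ERCC6L (0.996) were nearest to ITGA4, TTC7A (0.953), LRRC56 (0.949) and SCGB1B2P (0.946) to ITGA5, and MAGI1 (0.979), CELF2 (0.979) and WDR54 (0.973) to ITGAV. PRR13P5 (0.959), S100A11 (0.953) and BAG3 (0.951) were nearest to ITGA2B, SPTLC2 (0.959), SAV1 (0.952) and KLHL7 (0.948) to ITGB1, and VPS52 (0.967), FAM118A (0.955) and STEAP3 (0.953) to ITGB2. TBL2 (0.948), SND1 (0.939) and ABCD4 (0.931) were nearest to CD44, SNX4 (0.977), LOC653503 (0.972) and SLC35B3 (0.969) to CD47, LOC100131257 (0.921), LANCL3 (0.919) and PCNX1 (0.918) to ICAM4, and FAXDC2 (0.943), LRRC75A (0.938) and ARHGAP23P1 (0.936) to BCAM.

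Of 20 other integrin subunits, 13 passed 3 counts in some library and 11 were tested. On day 8 against day 0, 2 of these 11 were called, both lower, where 37.1% of all genes were, with a median of −1.44. These were ITGAE (−2.09, adjusted p = 0.00010; 4.91 and 5.59 TPM on day 0, 0.617 and 0.991 on day 8) and ITGB4 (−3.15, adjusted p = 0.042; 19.2 and 8.15 to 1.26 and 0.547 TPM), the partner of ITGA6, which itself averaged 0.0527 TPM. ITGB7, the other β chain that ITGA4 can pair with, read 9.32 and 3.10 TPM on day 0 and 0.818 and 2.35 on day 8 (−1.44, adjusted p = 0.081) and was called lower on day 12 than on day 8 (−1.92, adjusted p = 0.025). No β chain of this list passed 26.8 TPM in any library, while ITGB1 was at 164.2 TPM or more in every library of days 0 to 8.

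Inside the cell, talins and kindlins bind β chain tails and switch integrins on, and linkers such as vinculin, zyxin and paxillin tie them to actin. Of 22 adaptors and activators 19 were tested, and 5 were called higher and 6 lower on day 8 than on day 0, where 17.7% and 19.4% of all genes were, with a median of 0.01. The most abundant were the talin TLN1 (125 and 166 TPM on day 0, 133 and 238 on day 8; 0.92, adjusted p = 0.041), the kindlin FERMT3 (0.52, adjusted p = 0.067) and LIMS1 (0.01, adjusted p = 0.99). The largest changes were those of TNS1, a tensin (4.15, adjusted p = 0.0041), ZYX, zyxin (−3.46, adjusted p = 0.00040), APBB1IP, which brings talin to the membrane (−2.68, adjusted p = 0.0034), and TGFB1I1 (2.66, adjusted p = 0.0033). On day 12 against day 8, 3 were called higher and 9 lower, where 23.8% and 33.4% of all genes were. Of 5 inhibitors of integrin activation 4 were tested: FLNA, filamin A, was lower on day 8 than on day 0 (−2.16, adjusted p = 6.1e-06; 220 and 201 to 26.5 and 36.5 TPM), ITGB1BP1 was lower (−0.59, adjusted p = 0.0033), SHARPIN was higher (1.30, adjusted p = 0.0045) and DOK1 was not called (−1.52, adjusted p = 0.080), while FBLIM1 was too low to test.

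Of 18 ligands and counter-receptors 11 were detected and 8 tested. On day 8 against day 0, 4 were called lower and 1 higher, where 19.4% and 17.7% of all genes were, with a median of −1.76. ICAM3 (−5.17, adjusted p = 0.00048), LAMC1 (−2.73, adjusted p = 0.00015), ICAM1 (−2.35, adjusted p = 2.2e-06) and ICAM2 (−1.16, adjusted p = 0.00014) fell. The most abundant was MAEA, the erythroblast macrophage protein, at 99.7 and 95.2 TPM on day 0 and 51.9 and 64.6 on day 8 (−0.14, adjusted p = 0.33). VCAM1, SIRPA, SIRPG and FGA, ligands or receptors made mainly by other cell types, were listed at 0 in all 20 libraries. So was HAS2, an enzyme that makes hyaluronan.

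On red cells CD47 belongs to the Rh complex, and ICAM4 has been placed with it around band 3. Of 8 partners in that complex and its skeleton, 8 were called higher on day 8 than on day 0, with a median of 1.90, and 8 on day 12, with a median of 2.61. Of all genes 17.7% and 29.7% were called higher in these comparisons. These calls are under TMM. In TPM SPTB was lower on day 12 (113 and 68.7) than on day 0 (200 and 279). RHAG (532 and 314 against 452 and 668) and ANK1 (460 and 294 against 306 and 354) overlapped between these days. On day 8 against day 0 SLC4A1, band 3, rose by 7.18 (adjusted p = 9e-07), RHD by 4.92 (adjusted p = 7.8e-07), RHCE by 4.35 (adjusted p = 2.5e-06), EPB42 by 1.92 (adjusted p = 4e-05), RHAG by 1.84 (adjusted p = 0.00013) and ANK1 by 1.15 (adjusted p = 0.00042). The ratio of CD47 to RHAG TPM went from 0.111 and 0.0558 on day 0 to 0.0152 and 0.0210 on day 8 and 0.00568 and 0.00276 on day 12, with no overlap between these days and no test run on it. RHD and RHCE are near-identical copies, so reads may have been split between them.

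The linkers of CD44 to the skeleton diverged: MSN, moesin, was lower on day 8 than on day 0 (−3.45, adjusted p = 4.1e-06; 411 and 353 to 16.2 and 31.4 TPM), EZR, ezrin, was lower (−1.25, adjusted p = 3.3e-05) and RDX, radixin, was higher (0.64, adjusted p = 0.014), then lower on day 12 than on day 8 (−2.38, adjusted p = 2e-07). Of 18 other adhesion genes 13 were tested, with 6 called higher and 3 lower on day 8 than on day 0, where 17.7% and 19.4% of all genes were. BSG, basigin, was the most abundant at 1150 and 1140 TPM on day 0 (0.89, adjusted p = 0.0071), ACKR1, which carries the Duffy antigens, rose (2.72, adjusted p = 6.5e-06), CD36 rose (1.73, adjusted p = 0.00015), and CD164 fell (−0.68, adjusted p = 0.026). The other 2 lower calls, L1CAM and ALCAM, rest on day 0 levels of at most 1.13 TPM against 0 on day 8. Of 7 tetraspanins, which gather integrins in the membrane, 6 were tested. On day 8 against day 0, 3 were called, all lower, where 19.4% of all genes were called lower. These were CD37 (−4.37, adjusted p = 1.3e-05), CD63 (−1.83, adjusted p = 6.6e-06) and CD81 (−0.60, adjusted p = 0.0087), while CD82 (−0.55, adjusted p = 0.25) and CD151 (0.34, adjusted p = 0.14) were not called.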

How the data were processed

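Poly(A) RNA of HUDEP-2 cells was sequenced from stranded libraries. Per the submitters' processing notes the tools were Trimmomatic 0.38, HISAT2 2.1.0 and StringTie 2.1.3b on hg38. The authors deposited 4 tables of 170322 transcripts with read counts that are not normalized, and with TPM and FPKM. The deposited counts and TPM were summed by gene symbol, FPKM were not used, and 23 columns were left out in all, among them a further set for day 0 whose sample could not be matched. Columns name a day and no replicate. Genes were filtered with filterByExpr, scaled by TMM and tested with edgeR 4.0.16 (quasi-likelihood F test, all 20 libraries, 1 mean per day). DESeq2 1.42.0, edgeR's exact test and limma 3.58.1 on log2(TPM + 1) and log2(TPM + 0.1) were alternatives, as were other filters and scalings and leaving out each library. The fits were tested on simulated data. The genes named outside the members were the 3 with the highest mean TPM and up to 4 called genes, averaging at least 10 counts, with the largest change on day 8 in each list, and others are named for their role, as chosen after their values were seen. The members and lists were chosen with earlier results of these data known. The limit of 3 counts covers counting error only. The interval given comes from the SE of the fit, so it also holds the spread between these libraries.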

Additional observations from a re-analysis of the deposited data

How the results depend on the processing

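No paired analysis was possible because the columns of the tables name a day and no replicate number, so the labels' numbers could not be used. The table set, whose relation to those numbers is not known, was taken as a block instead. The counts here are over the 9 members other than BCAM. With that block, members called were 1 (day 1 against day 0), 6 (days 4 to 6 against day 0), 2 (day 7 against day 6) and 3 (day 8 against days 4 to 6). Calls over all genes rose with it too, to 442, 4809, 2274 and 6104 from 66, 2785, 431 and 3816 without the block. Days 4 to 6 against day 0 gave 0 with limma on log2(TPM + 0.1) and 4 in a fit of the days compared alone, where 2787 and 2825 of all genes were called. Day 8 against days 4 to 6 gave 1 by DESeq2, 3 and 4 with limma at pseudocounts of 1 and 0.1, and 1 without the filter, with at least 10 counts in every library or with the days compared alone. Over all genes these fits called 4891, 5908, 5872, 3395, 3424 and 2418. Day 8 against day 0 gave 1 with the days compared alone, where 3726 of all genes were called. Day 12 against day 8 gave 7, all lower, in both fits to TPM (10404 and 11100 of all genes). It gave 8 by DESeq2 or with the block (9763 and 10775), and 6 with the days compared alone (7699). Day 12 against day 0 gave 9, all lower, in both fits to TPM (12732 and 13126). It gave 8 with the block (12402), 5 with the days compared alone (10636), and 6 with upper-quartile scaling (11462) or without the filter (11162). Members lowest on day 12 were 8 in TPM and 5 in TMM-scaled CPM. The causes of these differences were not tested. Leaving out 1 library at a time gave 7 to 8 calls over the 10 days (9636 to 10978 over all genes). It gave 0 in every fit on day 1 (7 to 113) and 0 to 4 on days 4 to 6 (959 to 3061). Day 7 against day 6 had 0 in every fit (67 to 822), and day 8 against days 4 to 6 had 0 to 1 (464 to 4096). Against day 0, day 8 had 1 to 3 (3568 to 6484) and day 12 had 5 to 7 (10072 to 11608). Day 12 against day 8 had 5 to 7 (7982 to 9591).

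With limma on log2(TPM + 1) and log2(TPM + 0.1) these turned: ITGA5 (−0.10, −0.11) and ICAM4 (−0.22, −0.22) on day 8 against day 0, CD44 (−0.40, −0.41), ICAM4 (−1.38, −1.40) and BCAM (−0.17, −0.57) on day 12 against day 8, CD44 (−1.61, −1.65) and ICAM4 (−1.60, −1.62) on day 12 against day 0, and ICAM4 (−0.13, −0.13) on day 8 against days 4 to 6. For ITGB1, day 12 against day 0 was 0.066 by DESeq2, 0.14 with upper-quartile scaling and 0.000992 with at least 10 counts in every library. Without 1 library, day 8 against day 0 ran from −0.51 to 0.33 for ITGA4 and from −0.48 to 0.032 for CD47, ICAM4 on day 12 against day 8 from −0.11 to 0.17 and ITGB1 on day 12 against day 0 from −0.22 to 0.047. Of 467 other fits of 44 member comparisons, those of BCAM with day 0 among them, 394 kept direction and side of the threshold. With 0 counts on day 0 the direction of those BCAM fits was fixed in advance, so their share of the 394 is no support. Over all genes, calls were 66 on day 1 (0 to 442 under all alternatives), 431 on day 7 against day 6 (0 to 2274), 3816 for day 8 against days 4 to 6 (464 to 6104, the lowest without the first library of day 8), 6224 for day 8 against day 0 (3568 to 8106, the lowest without that library) and 2785 for days 4 to 6 against day 0 (959 to 4809, the lowest without the first library of day 0).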
